A study of Mus musculus with 6 samples.

Results

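Hs3st4 and Galnt6 encode a pair of Golgi enzymes that modify glycans, and both were lower in mogrol-treated cells than in control cells. They are 2 of the 109 genes in the deposited gene table and were picked by gene symbol. The table itself had been selected on the contrast of mogrol-treated against control cells, since the authors kept only genes past their limits on significance (adjusted p-value of 0.05) and on size (log2 fold change of 1 either way). The differences between the groups given here for these genes are therefore descriptions, and no p-value is attached to them.

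All 6 libraries came from bone marrow macrophages (BMMs) of C57BL/6 mice (C57BL/6J in the study's methods), precursor cells that fuse into osteoclasts when the cytokine RANKL is added. The study's methods describe BMMs flushed from the hind legs of mice aged 6 weeks and grown in M-CSF. The 3 control libraries came from cells that received 30 ng/ml RANKL for 5 days. The 3 mogrol libraries came from cells that also received 20 μM mogrol, the aglycon of the mogrosides of Siraitia grosvenorii, over the same days. Nothing in the labels tells whether the replicates were separate animals or separate cultures, so the spread between them may be technical. Every library is RNA of a whole culture, in which fewer cells of one type and less RNA per cell cannot be told apart.

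Heparan sulfate is a sulfated sugar chain carried by cell surface and matrix proteoglycans, where it binds growth factors, enzymes and adhesion proteins. Its chain is built in the Golgi and then modified by N-, 2-O-, 6-O- and 3-O-sulfotransferases. Hs3st4 encodes one of the 3-O-sulfotransferases, which move sulfate from the donor PAPS to glucosamine residues of the chain, a late and rare modification. Mucin-type O-glycosylation starts when a GalNAc transferase adds N-acetylgalactosamine to serine or threonine of a protein passing through the Golgi. Galnt6 encodes one member of that large transferase family, and fibronectin is among its known substrates.

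The genes differ in their layout. Hs3st4 (ENSMUSG00000078591) lies on the plus strand of chromosome 7 from 123982869 to 124398989 in GRCm38, the build of the table. Its 1 annotated transcript has 2 exons of 3189 bases in all, separated by an intron of 412932 bases, so that exons make up 0.766% of the gene. Galnt6 (ENSMUSG00000037280) lies on the minus strand of chromosome 15 from 100691813 to 100729376, with 3 annotated transcripts of 12 exons each and 3871 exonic bases. The third Galnt6 transcript starts 8899 bases downstream of the first start, and reads were counted per gene, so the starts were not separated.

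Each gene is crossed by an antisense gene. Exons of Gm27040 cover 130 exonic bases of Hs3st4, and exons of Galnt6os cover 441 exonic bases of Galnt6. The study's methods do not say whether counting used the strand, so reads from those stretches cannot be assigned with certainty. Gm15338 and the snoRNA gene Gm25759 lie inside the Hs3st4 intron on the same strand and share none of its exonic bases.

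**Figure D1:**
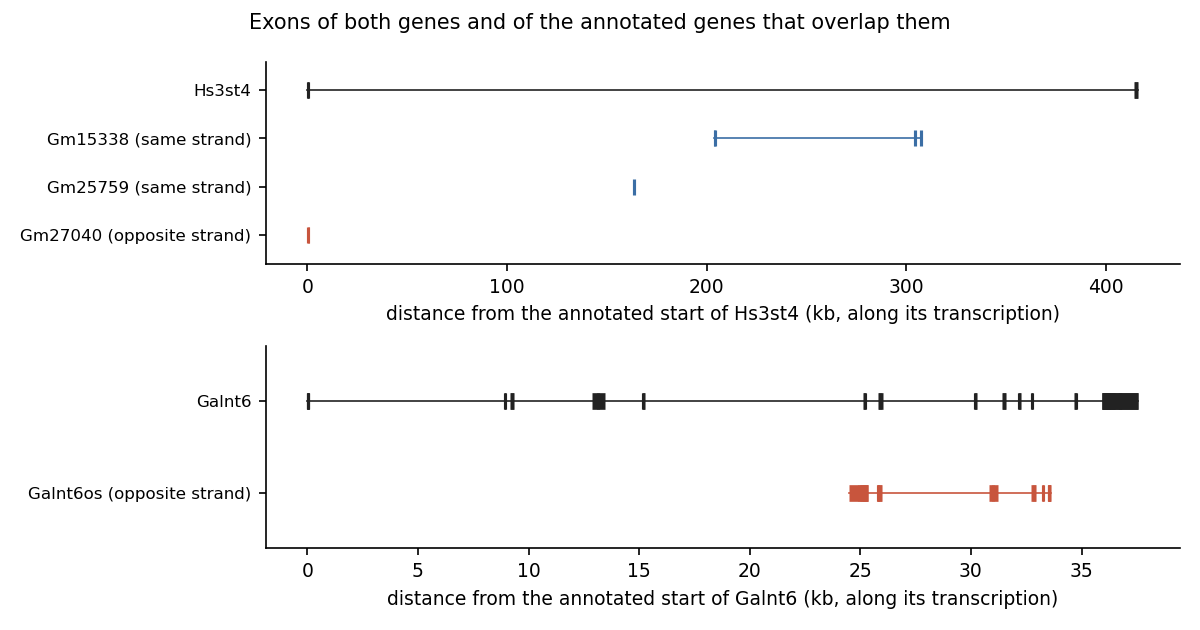
Exons (blocks) of Hs3st4 and Galnt6 and of the annotated genes that overlap them, against the distance from the start of each gene in kb along its transcription. Hs3st4 has 2 exons at the far ends of its span, whereas the exons of Galnt6 are spread along the gene, and of the antisense genes Gm27040 and Galnt6os only exons inside the span are drawn.

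Both genes are among the 64 of 109 deposited genes that were lower with mogrol. The sequences before their starts are shown as a description. They are the 250 bases upstream of the RefSeq start on the strand of the gene (RefSeq, GRCm38.p6), and capitals mark GC boxes, the letters GGGCGG or their reverse complement CCGCCC. The Hs3st4 stretch is chr7:123982578-123982827, plus strand. The Galnt6 stretch is chr15:100729377-100729626, minus strand.
Hs3st4: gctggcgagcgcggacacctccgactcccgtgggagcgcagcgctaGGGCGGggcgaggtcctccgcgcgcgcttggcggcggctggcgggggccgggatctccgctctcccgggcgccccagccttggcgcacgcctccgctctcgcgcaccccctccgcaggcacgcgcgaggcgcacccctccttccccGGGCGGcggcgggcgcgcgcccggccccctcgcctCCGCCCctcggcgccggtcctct
Galnt6: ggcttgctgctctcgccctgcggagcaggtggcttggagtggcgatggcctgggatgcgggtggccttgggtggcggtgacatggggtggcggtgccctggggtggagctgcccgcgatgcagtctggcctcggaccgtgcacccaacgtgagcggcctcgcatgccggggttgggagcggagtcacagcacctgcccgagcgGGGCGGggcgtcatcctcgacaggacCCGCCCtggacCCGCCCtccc

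Both printed stretches were rich in G and C. The Hs3st4 stretch was 82% G or C with 43 CpG dinucleotides, and the Galnt6 stretch was 72.8% with 22. Over 32851 RefSeq stretches of the same length the medians were 52.4% and 6, and 99.4% and 94.0% of them had a lower G and C content than those of Hs3st4 and Galnt6. Each of the printed stretches held 3 GC boxes, a motif present in 32.7% of all such stretches. On either strand, neither printed stretch held TGANTCA (the AP-1 motif, in 6.75% of all stretches), GGAAA (the NFAT core, 55.6%), GGANNTTCC (the NF-κB core, 3.59%), GAGGAA (the PU.1 core, 23.3%) or CACGTG (an E-box, 6.02%). The stretch before the second Galnt6 start, at chr15:100720478-100720727, was less so, 59.6% G or C with 10 CpG dinucleotides. It held no GC box and 1 match each to GGAAA and GAGGAA, which overlap in the letters GGAA. These matches and absences describe the letters only.

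The table gives raw reads per gene and FPKM, which are reads of a gene scaled to its length and to the depth of the library. The library totals recovered from these columns lay between 18097882 and 18652439 reads, so depth differed little. Levels are given below as raw reads, as RPM (reads of a gene scaled to the depth of the library, as reads per 1000000 reads) or, between genes, as FPKM.

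Hs3st4 was barely detected with mogrol. It had 29, 23 and 34 raw reads in control replicates 1, 2 and 3. In mogrol replicates 1, 2 and 3 it had 3, 7 and 4 raw reads. All 3 mogrol libraries lay below all 3 control libraries, as in 64 of the 109 deposited genes. The highest mogrol value was 7 reads and the lowest control value was 23.

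This was 1.56 ± 0.317 RPM in control cells and 0.256 ± 0.117 RPM in mogrol-treated cells (SD, n = 3). The mean level with mogrol was 16.4% of that in control cells. Over the 9 pairs of a control and a mogrol library, the control level was between 3.19 and 11.5 times the mogrol level. From the summed reads, 86 in control and 14 in mogrol libraries, the ratio of control to mogrol was 6.10, with an exact 95% interval of 3.44 to 11.6 that covers counting error only. The direction was shared by every pair of libraries, as in all 109 deposited genes, which were chosen on these libraries. The size was known at best to within several-fold, since the interval does not allow for that choice.

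The spread of Hs3st4 among replicates was about that of counting. The SD of its raw reads was 5.51 in control libraries, where Poisson counting alone gives 5.35, and 2.08 in mogrol libraries, where it gives 2.16. The exact 95% Poisson intervals of the mogrol libraries reached up to 8.77, 14.4 and 10.2 reads. The lower bounds in control libraries were 19.4, 14.6 and 23.5 reads. The interval of every mogrol library thus ended below the start of the interval of every control library. The margin was small for mogrol replicate 2 against control replicate 2. Nothing is read from this separation, because the gene was chosen on these libraries. In all 109 deposited genes the levels of the groups did not overlap.

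Galnt6 stood at the other end of the range of depth. It had 5462, 5907 and 5424 raw reads in control replicates 1, 2 and 3. In mogrol replicates 1, 2 and 3 it had 2920, 2790 and 2924 raw reads. The groups did not overlap, as in all 109 deposited genes, and the libraries within each group lay close together.

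Galnt6 had 303 ± 11.8 RPM in control cells and 157 ± 2.59 RPM in mogrol-treated cells (SD, n = 3). The mean level with mogrol was 51.8% of that in control cells, or 48.2% lower. Over the 9 pairs of libraries the control level was between 1.85 and 2.05 times the mogrol level. The summed reads, 16793 in control and 8634 in mogrol libraries, gave a ratio of 1.93 with an exact 95% interval of 1.88 to 1.98 for counting error. Counting alone gives a coefficient of variation of 1.34% in control and 1.86% in mogrol libraries, against 3.90% and 1.65% observed in RPM. Control replicate 2, with 317 RPM, was the highest library, and the other control libraries had 295 and 298 RPM.

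**Figure D2:**
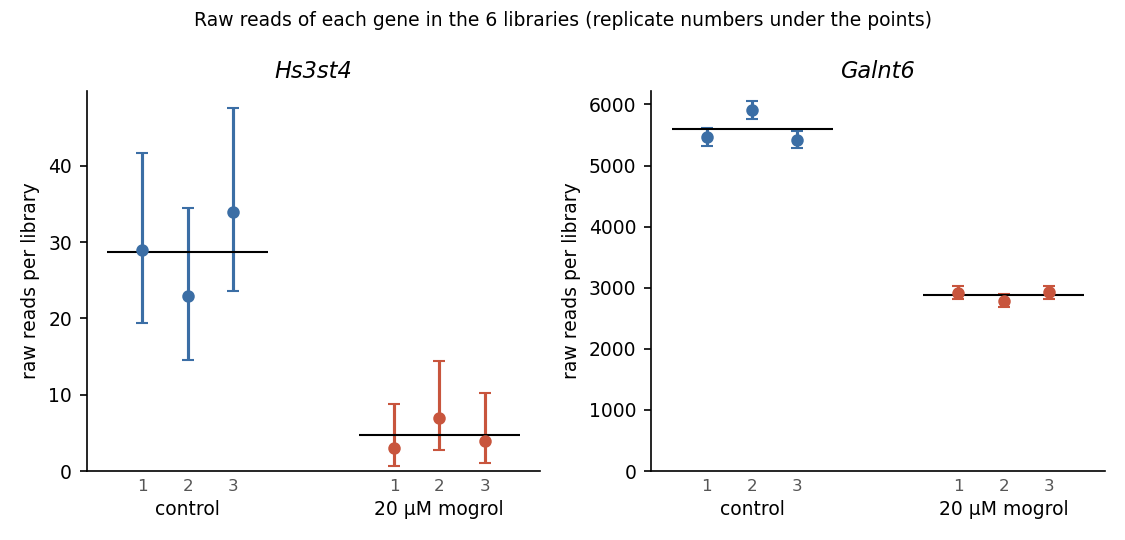
Raw reads of Hs3st4 and Galnt6 per library, with exact 95% Poisson intervals as error bars and the group mean as a line (3 control and 3 mogrol libraries). Hs3st4 ranges from 23 to 34 reads in control and 3 to 7 in mogrol libraries, and Galnt6 from 5424 to 5907 and 2790 to 2924.

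The levels of the enzymes differed far more from each other than either did between groups. Per length, Hs3st4 had 0.49 ± 0.1 FPKM in control and 0.08 ± 0.0361 FPKM in mogrol-treated cells, and Galnt6 had 78.3 ± 3.05 and 40.6 ± 0.673 FPKM (SD, n = 3). Among the 109 deposited genes ordered by mean FPKM in control cells, Galnt6 was number 5 and Hs3st4 number 100, around a median of 2.94 FPKM. In mogrol-treated cells they were numbers 9 and 107. A single read of Hs3st4 was worth 0.0168 to 0.0173 FPKM, depending on the library. Reads per length of Galnt6 were 155, 212 and 131 times those of Hs3st4 in control replicates 1 to 3, and 802, 328 and 602 times in the mogrol replicates. The ratio was higher in every mogrol library than in any control library. This restates that Hs3st4 was lower by the larger factor, in genes chosen on this contrast. The ratios in mogrol replicates 1, 2 and 3 rest on 3, 7 and 4 reads of Hs3st4.

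In edgeR's quasi-likelihood fit over all 109 genes, scaled to the recovered library totals, the log2 fold change of Hs3st4 was -2.58 (standard error 0.433). That of Galnt6 was -0.95 (standard error 0.0826). Only 2 of the 109 genes, ordered from the lowest, had a fold change below that of Hs3st4. Both were also shallow, with means of 31 and 22.8 reads against a median of 201, and Hs3st4 had 16.7. The part of depth in this rank was not tested. The standard error of Hs3st4 was the second largest of the 109. Galnt6 had the smallest fold change in size of all 109 genes, followed by Igfbp5 at -0.99 and Col6a2 at -1.01, which lie on either side of the 2-fold limit.

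Of the 109 genes 62, or 56.9%, were lower with an adjusted p-value under 0.05 and a log2 fold change below -1 in this fit. Of the enzymes, Hs3st4 had a fold change past the 2-fold limit and Galnt6 was short of it. In 64 genes, or 58.7%, all mogrol libraries lay below all control libraries, both enzymes included, and in the other 45 all lay above. Nothing is read from these counts, because the table was chosen on the same libraries. The median log2 fold change of the 64 lower genes was -1.41.

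The position of Galnt6 relative to 2-fold depended on scaling. Scaled by the authors' own size factors, recovered from their mean normalized counts and 0.07 higher in log2 in mogrol relative to control libraries than the totals are, Galnt6 had a log2 fold change of -1.02 and Hs3st4 one of -2.65. With each library left out in turn, Galnt6 stayed between -0.97 and -0.92 and Hs3st4 between -2.99 and -2.34, the latter being lowest without mogrol replicate 2 and closest to 0 without mogrol replicate 1. The direction of Galnt6 turned in 1 setting, median-of-ratios size factors taken over the deposited genes alone (0.031), which moved the median gene by 0.98.

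**Figure D3:**
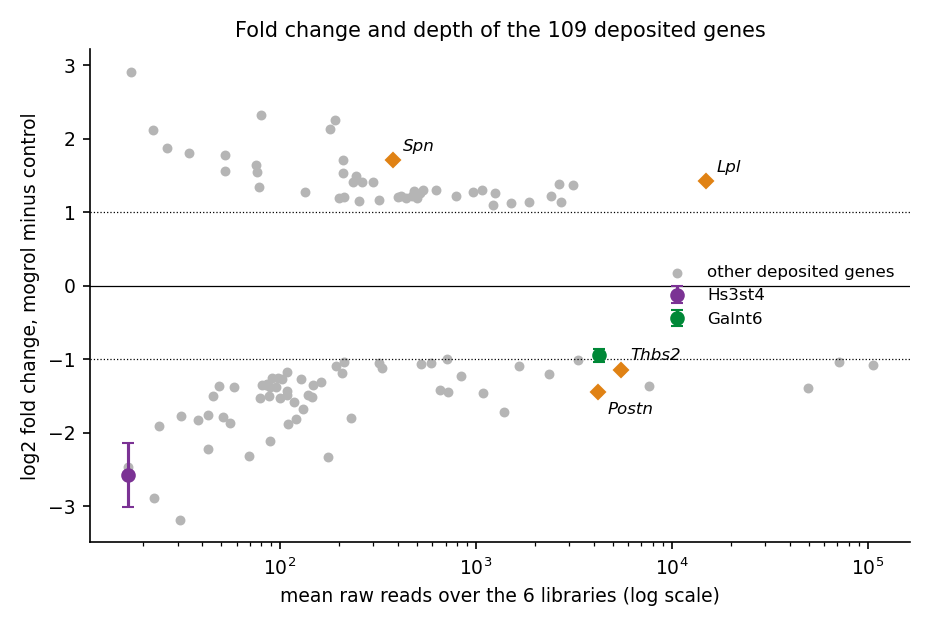
Log2 fold change (mogrol minus control, edgeR on recovered totals) against mean raw reads over the 6 libraries (log scale) for the 109 deposited genes, with standard errors for Hs3st4 and Galnt6 and dotted lines at 2-fold. Hs3st4 sits at the low end of depth with -2.58 and Galnt6 among the deep genes with -0.95, a value that turns to 0.031 when size factors are taken from these genes alone, and diamonds mark Spn, Lpl, Thbs2 and Postn.

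**Figure D4:**
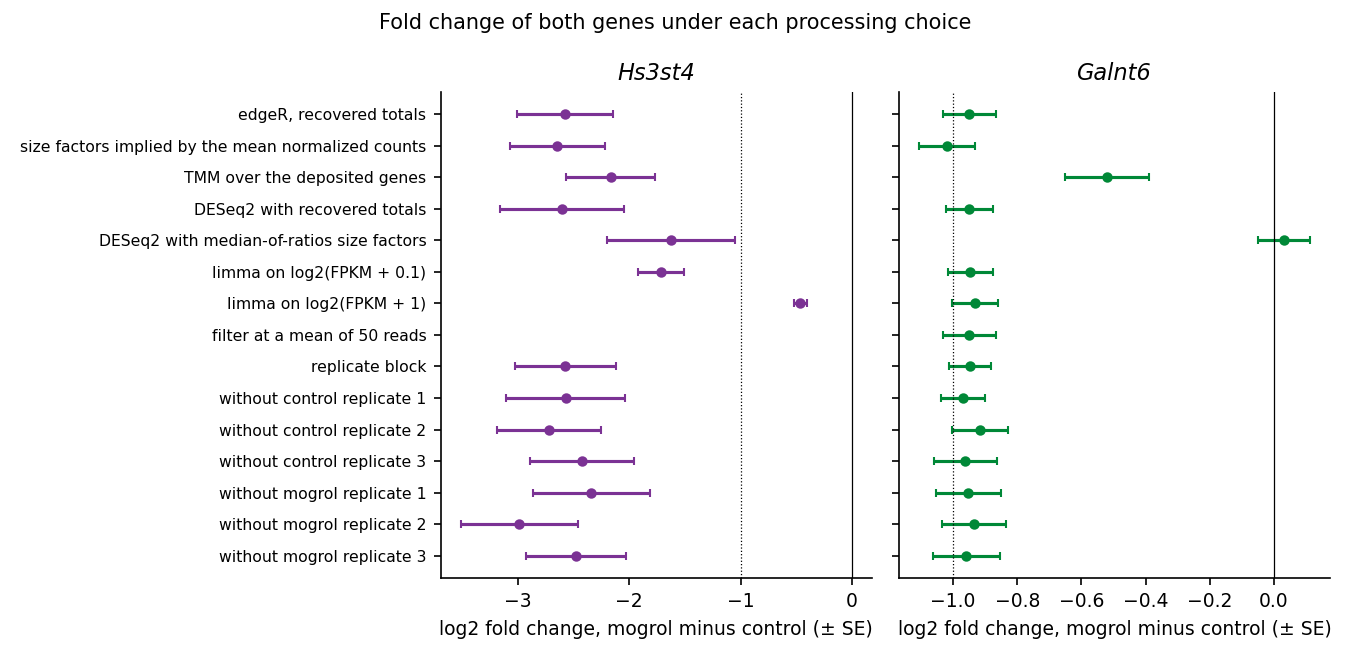
Log2 fold change of each gene with its standard error under each processing choice, with a dotted line at 2-fold and a solid line at 0. Hs3st4 lies between -2.99 and -0.46 and has no value under the filter at 50 reads, and Galnt6 lies between -1.02 and 0.031.

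Few other genes of either pathway were in the table. Of 60 genes listed for heparan sulfate (core proteins, linker and chain polymerases, sulfotransferases, the epimerase, sulfate donor supply, and trimming or breakdown enzymes), Hs3st4 was the only one present. It was thus 1 of 7 listed 3-O-sulfotransferases. Of 58 genes listed for mucin-type O-glycosylation, Galnt6 and Spn were present, and Galnt6 was 1 of 20 listed GalNAc transferases. None of 119 other listed glycan enzymes was present. Genes outside the table were not analysed here, and nothing is said of their levels.

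Spn encodes leukosialin (CD43), a mucin-like leukocyte surface protein that carries many O-linked glycans. Its raw reads were 178, 171 and 183 without mogrol, and 600, 540 and 595 with it. Spn was higher in every mogrol library, as were 45 of the 109 deposited genes, and opposite in direction to Galnt6. The mean level was 9.61 ± 0.441 RPM in control and 31.6 ± 1.48 RPM in mogrol-treated cells (SD, n = 3). On the log2 scale the difference was 1.71, with a standard error of 0.125. Within the mucin-type list 1 gene, the enzyme that starts O-glycosylation, was lower and 1, the carrier protein, was higher. Nothing is read from this about the pathway, because the table was chosen for changes in both directions.

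Of the 109 genes 3 carry heparin binding as a molecular function in the table, heparin being the highly sulfated relative of heparan sulfate. Thbs2, a matricellular thrombospondin, had 7312, 7792 and 7557 raw reads in control and 3251, 3461 and 3464 in mogrol libraries. Its log2 fold change was -1.14 (standard error 0.0820). Postn, the matrix protein periostin, had 6298, 6190 and 6018 raw reads in control and 2240, 2312 and 2208 in mogrol libraries, a log2 fold change of -1.44 (standard error 0.0837). Lpl encodes lipoprotein lipase, which is held at cell surfaces through heparan sulfate. It went the other way, from 7047, 8636 and 8882 raw reads in control to 22847, 21724 and 21059 in mogrol libraries, a log2 fold change of 1.43 (standard error 0.0802). Both matrix proteins were thus lower and the lipase higher, and in each of the 3 genes the groups did not overlap, as in all 109 deposited genes.

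The genes most like each enzyme were taken as those with the highest Pearson correlation of log2 RPM over the 6 libraries. For Hs3st4 they were Mapk4, Lrrc15, Stra6l, Corin and Aldh1a3, with r from 0.971 to 0.981. In Mapk4, an atypical MAP kinase, mogrol replicate 2 was the highest mogrol library with 32 raw reads against 17 and 20, as in Hs3st4. Control replicate 2 was the highest control library of Mapk4, with 131 raw reads, and the lowest of Hs3st4. Corin, a membrane protease that activates natriuretic peptide, had 49, 64 and 60 raw reads in the mogrol libraries. For Galnt6 they were Mmp13, Cyp2s1, Akr1c18, Ckb and Itgb7, with r from 0.997 to 1.00. Mmp13, a collagenase, had 338, 393 and 340 raw reads in control and 100, 98 and 107 in mogrol libraries. Ckb, the brain-type creatine kinase that osteoclasts also use, had 96336, 101123 and 91480 in control and 46534, 47250 and 46416 in mogrol libraries.

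These correlations share libraries and follow the difference between the groups on which all the genes were chosen. Of 108 genes, 49 had r above 0.9 with Hs3st4 and 62 with Galnt6. The enzymes correlated with each other at 0.941 over the 6 libraries. Galnt6 was number 33 in likeness to Hs3st4, and Hs3st4 number 52 in likeness to Galnt6. The genes most like Galnt6 had from 98 to 101123 reads per library.

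**Figure D5:**
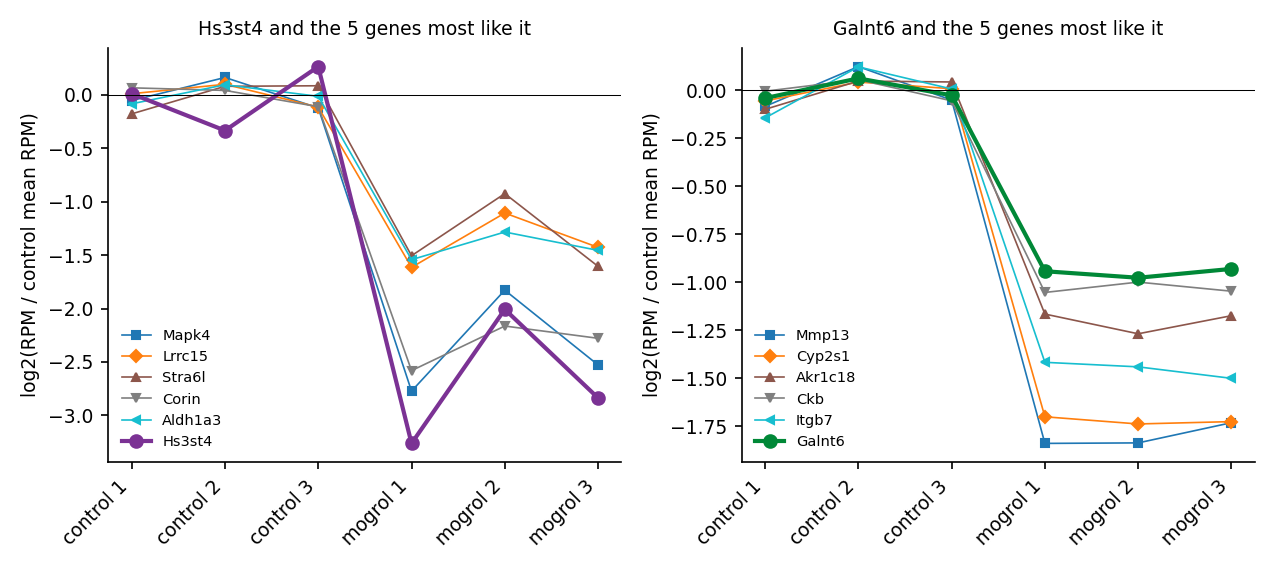
Log2 of RPM relative to the mean of the control libraries in each of the 6 libraries, for Hs3st4 and Galnt6 (thick lines) and the 5 deposited genes whose log2 RPM correlates best with each. Lines only join the values of a gene, and all the genes drawn are lower in the 3 mogrol libraries than in the 3 control libraries at this scaling.

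Markers of several cell types also differed between the groups, and their part in the levels of Hs3st4 and Galnt6 was not tested. Of 15 listed osteoclast markers 3 were in the table, Ctsk, Ckb and Tfrc, and their summed level was 16060 to 18330 RPM in control and 7461 to 8013 RPM in mogrol libraries. Of 20 listed stromal markers 5 were in the table, Col3a1, Col6a2, Postn, Thy1 and Igfbp5. Their summed level was 1196 to 1263 RPM in control and 484 to 529 RPM in mogrol libraries. All 8 of these genes were lower, with log2 fold changes from -1.44 to -0.99, and Igfbp5 alone was short of the 2-fold limit. Of all 109 deposited genes 64 were lower, and 56.9% were called lower, in a table chosen on this contrast. In the opposite direction, 3 of 15 macrophage markers (Fcgr3, Cx3cr1 and Clec7a) summed to 86.6 to 121 RPM in control and 245 to 279 RPM in mogrol libraries. Itgax, 1 of 10 dendritic cell markers, had 14.7 to 17.8 RPM in control and 36.9 to 39.3 RPM in mogrol libraries. None of 10 endothelial or 10 neutrophil markers was in the table, and none of the markers present was at 0. The summed levels cover only markers that had passed the selection on size, so they do not give the change of a class as a whole. For osteoclast genes outside that selection, such as Oscar, the paper reports a smaller fall than for Ctsk.

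The correlation of log2 RPM with these markers, over the same 6 libraries, was positive for the osteoclast and stromal markers and negative for the others. Its sign follows from the choice of all these genes on the difference between the groups. Of 108 genes, 49 had r above 0.9 with Hs3st4 and 62 with Galnt6, so nothing is read from these values. For Hs3st4, r was 0.938 to 0.955 with the osteoclast and 0.851 to 0.965 with the stromal markers. For Galnt6, r was 0.991 to 0.997 with the osteoclast and 0.961 to 0.995 with the stromal markers. With the macrophage markers r was negative for both enzymes, -0.963 to -0.928 for Hs3st4 and -0.980 to -0.966 for Galnt6. With Itgax it was -0.970 for Hs3st4 and -0.983 for Galnt6.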

How the data were processed

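RNA of BMMs was sequenced as 3 control and 3 mogrol libraries. According to the authors' methods and processing notes, reads were trimmed (cutadapt 1.9.1) and aligned with HISAT2 2.0.1 to GRCm38, and HTSeq 0.6.1 is named. The deposited raw read counts per gene are not normalized. The deposited FPKM values were made by the authors from counts, gene length and library totals, and hold 2 decimals. The deposited mean normalized count is a signal averaged over the 6 libraries with the authors' DESeq2 size factors. Columns of the authors' fold changes, standard errors, test scores and p-values were not used.

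Groups and replicate numbers were taken from the sample titles. Library totals were recovered to within 71.4 reads, and size factors from the mean normalized counts (largest relative residual 4.29e-10). Counts of all 109 genes were fitted with edgeR 4.0.16 (R 4.3.3) by the quasi-likelihood test, without filter or covariate, on the recovered totals. Standard errors were obtained by dividing each log2 fold change, without its sign, by the root of its F statistic. The same fit was also run on simulated counts. Alternatives used other scalings, DESeq2 1.42.0, a filter at a mean of 50 reads, leaving out each library, a replicate block, and limma 3.58.1 on log2 of FPKM with pseudocounts of 0.1 or 1. Every pair of libraries of one group differed by more than sampling noise (chi-square over the 109 genes, divided by its degrees of freedom, of 5.23 to 19.6). That does not tell whether the replicates were separate animals or cultures. Each library was counted as 1 sample.

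Both enzymes and the gene lists were chosen with earlier results of these data known. Other genes named are those of the listed pathways in the table, those with heparin binding as a deposited function, the 5 most like each enzyme, and the listed cell type markers. Gene models came from GENCODE M21 (GRCm38), where all 109 identifiers were found and 107 had an unchanged start and end. RefSeq sequence was found for both genes. The RefSeq start of Hs3st4 lies 41 bases upstream of the one in the table. Intervals cover counting error only and do not allow for the choice of the genes on these libraries.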

Additional observations from a re-analysis of the deposited data

How the results depend on the processing

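The values that moved by more than the spread between replicates did so with the scaling or the pseudocount. With size factors implied by the authors' mean normalized counts, Galnt6 had a log2 fold change of -1.02. TMM over the deposited genes alone gave -0.52 for Galnt6 and left 30 genes lower, and median-of-ratios size factors over the same genes (DESeq2) gave 0.031 for Galnt6, -1.63 for Hs3st4 and 8 genes lower. These scalings centre a table of changed genes and moved the median gene by 0.42 and 0.98. For Hs3st4, limma gave -1.72 on log2(FPKM + 0.1) and -0.46 on log2(FPKM + 1). The added value of 1 exceeds the FPKM of Hs3st4 in every library, control and mogrol. With that value 27 genes were left lower and 25 higher, against 62 and 45. The filter at a mean of 50 reads removed Hs3st4. With the replicate block, the values were -2.57 for Hs3st4 and -0.95 for Galnt6. Deviations of same-numbered libraries correlated at 0.0839, 0.197 and 0.0666, and those of differently numbered libraries at -0.151 to 0.0801. These values do not settle whether the libraries were paired, and they were treated as unpaired. Depth limits Hs3st4, with a mean of 16.7 reads, far more than Galnt6.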
